A study of Mus musculus with 19 samples.

Results

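Ly6 genes encode small proteins of the LU fold, and those described here are held on the outer cell surface by a glycosylphosphatidylinositol (GPI) anchor. The 6 genes Ly6a, Ly6c1, Ly6c2, Ly6d, Ly6e and Ly6i were taken by symbol from the Ly6 cluster on mouse chromosome 15, out of 50854 genes in the count table, and all 6 passed the minimum of a mean of 1 read per library. Bulk RNA sequencing was carried out on bone marrow cells sorted from REP mice, which carry fluorescent reporters for chemokine receptors, CCR1 and CCR2 among them. All mice were female and aged 8–12 weeks. The 19 libraries used here fell into 5 groups. Resting CCR2+ve (n = 4) and resting CCR1/2+ve (n = 4) cells came from untreated mice and expressed the reporter for CCR2 alone or those for CCR1 and CCR2. Inflamed CCR2+ve (n = 4) and inflamed CCR1/2+ve (n = 3) cells were the same populations from mice given IL-3, IL-6, GM-CSF and IFN-α together through an osmotic pump under the skin for 7 d. A further group from inflamed mice was labelled CCR1 (n = 4) and had no resting counterpart. The number of mice behind a library was not stated, so p-values measure the spread between these libraries, which may be in part technical.

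Ly6C, the product of Ly6c1 and Ly6c2, is the classical surface marker of mouse inflammatory monocytes. Ly6a encodes Sca-1, which marks hematopoietic stem cells and many interferon-exposed cells, Ly6e encodes an interferon-inducible protein that restricts entry of coronaviruses, and Ly6d marks lymphoid progenitors committed to the B lineage. Ly6i is a less studied close relative of Ly6a. Ly6C protein was part of the gate given for monocytes sorted from resting mice of this line for culture (CD11b+ Ly6C++ Ly6G- SiglecF-). A Ly6C-high, Ly6G-negative gate was also given for marrow cells with both reporters that went to single-cell sequencing. For the bulk libraries the methods point to a staining table that was not used here, and the part of the gate in the Ly6c transcript levels was not tested.

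Between 22268658 and 30502009 reads per library were assigned to genes. The receptor transcripts were compared with the labels first. Levels are given as CPM, the reads of a gene scaled to the TMM-adjusted size of its library. Ccr2 measured 1218 ± 178 CPM (SD, n = 4) in resting CCR2+ve, 633 ± 109 (n = 4) in resting CCR1/2+ve, 1251 ± 126 (n = 4) in inflamed CCR2+ve and 1240 ± 134 (n = 3) in inflamed CCR1/2+ve cells, but only 5.81 ± 2.56 (n = 4) in the CCR1-labelled libraries. Ccr1 was lowest in the CCR1-labelled libraries as well, at 38.0 ± 4.58 CPM against 75.1 to 309.9 CPM in the other group means. Of 8 monocyte markers (Csf1r, Ccr2, Lyz2, Itgam, Fcgr1, Cd68, Ctss and Cx3cr1), all 8 had a mean of at least 10 CPM in each of the 4 CCR2-expressing groups and 5 did so in the CCR1-labelled group. The summed level of 9 neutrophil markers was 99588 to 146286 CPM in the CCR1-labelled libraries and 808 to 3324 CPM elsewhere. The CCR1-labelled group is therefore named by its label only, and no cell type is given to it.

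The sequences of the members are shown because they set how well reads can be told apart. The aligner kept only reads that mapped to 1 place. Ly6c1 and Ly6c2, both on the minus strand (Ly6c1, ENSMUSG00000079018, chr15:75044018-75048830; Ly6c2, ENSMUSG00000022584, chr15:75108158-75111970, GRCm38), had coding sequences of 396 bases that were identical at 387 positions (97.73%) with 1 identical run of 188 bases. All 9 differing bases lie in the stretches below, coding bases 1–80 and 241–396 counted from the A of the start codon, in the transcripts Ly6c2-201 and Ly6c1-201, with the differing bases in capitals.
Ly6c2 bases 1–80: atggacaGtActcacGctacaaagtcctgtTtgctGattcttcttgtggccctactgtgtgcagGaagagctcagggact
Ly6c1 bases 1–80: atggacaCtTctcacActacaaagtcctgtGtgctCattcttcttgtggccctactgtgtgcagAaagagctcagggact
Ly6c2 bases 241–396: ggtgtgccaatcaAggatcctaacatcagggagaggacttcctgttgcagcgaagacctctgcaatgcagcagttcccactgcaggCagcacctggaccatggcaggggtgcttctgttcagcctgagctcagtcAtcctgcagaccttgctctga
Ly6c1 bases 241–396: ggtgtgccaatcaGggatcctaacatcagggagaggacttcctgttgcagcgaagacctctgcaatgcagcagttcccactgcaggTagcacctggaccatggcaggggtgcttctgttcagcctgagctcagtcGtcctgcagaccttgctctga
Windows of 100 bases that also occur in a transcript of another gene made up 15.77% of the Ly6c2-201 windows and 15.3% of the Ly6c1-201 windows. With windows of 50 bases the shares were 32.99% and 36.73%. Counts of both genes therefore rest on reads that cover their differing bases.

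Ly6a (ENSMUSG00000075602, chr15:74994877-74998031, minus strand) and Ly6i (ENSMUSG00000022586, chr15:74979534-74983430, minus strand) were the next most alike pair, with 86.42% identity over 405 coding bases. Between coding bases 181 and 300 they differed at 35 of 120 positions, shown in capitals, and of windows of 120 bases taken in steps of 60 this one differed most.
Ly6a bases 181–300: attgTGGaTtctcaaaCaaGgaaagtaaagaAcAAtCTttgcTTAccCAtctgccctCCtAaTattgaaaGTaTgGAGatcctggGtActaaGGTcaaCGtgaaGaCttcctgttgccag
Ly6i bases 181–300: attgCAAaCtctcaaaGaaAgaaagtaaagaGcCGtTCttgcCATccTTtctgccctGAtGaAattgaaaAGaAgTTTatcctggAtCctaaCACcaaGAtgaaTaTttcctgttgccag
No window of 100 bases of Ly6a-201 or Ly6i-201 occurred in another gene, and 8.052% and 4.968% of windows of 50 bases did. Ly6d (ENSMUSG00000034634, chr15:74762056-74763620, minus strand) and Ly6e (ENSMUSG00000022587, chr15:74955051-74959905, plus strand) were 53.24% identical to each other and shared no window of 50 bases with any other gene. No exon of the 6 genes overlapped an exon of another annotated gene.

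**Figure D1:**
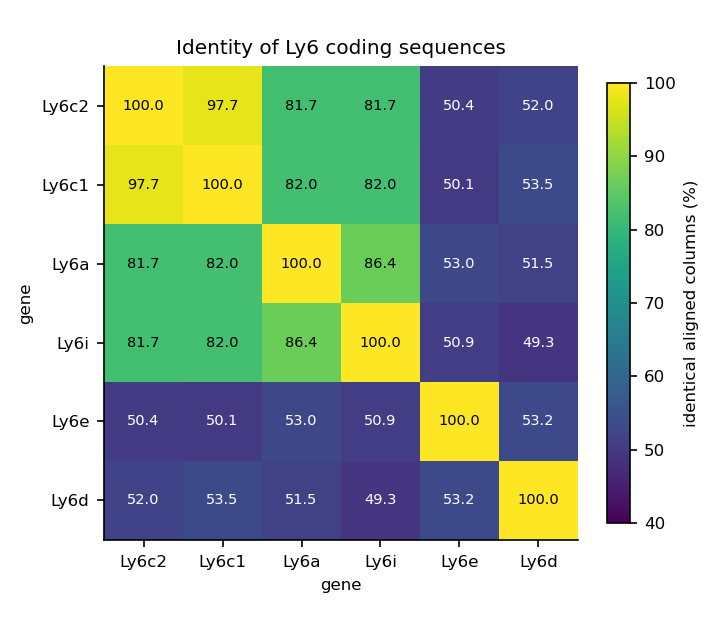
Percentage of identical columns in global alignments of the coding sequences, for each pair of the 6 Ly6 genes (rows and columns are genes, colour and printed values are percent). Ly6c1 and Ly6c2 form the most alike pair at 97.73%, Ly6a and Ly6i follow at 86.42%, and Ly6d and Ly6e stand apart from the rest.

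RefSeq promoter windows (GRCm38.p6, 250 bases before and 50 after the transcription start) were at hand for 2 of the 6 members, Ly6c1 and Ly6c2. The 250 upstream bases are shown because the paralogs are less alike here than in their coding bases. Capitals mark bases without an identical partner in the alignment of the pair.
Ly6c2 promoter, chr15:75111972-75112221, minus strand: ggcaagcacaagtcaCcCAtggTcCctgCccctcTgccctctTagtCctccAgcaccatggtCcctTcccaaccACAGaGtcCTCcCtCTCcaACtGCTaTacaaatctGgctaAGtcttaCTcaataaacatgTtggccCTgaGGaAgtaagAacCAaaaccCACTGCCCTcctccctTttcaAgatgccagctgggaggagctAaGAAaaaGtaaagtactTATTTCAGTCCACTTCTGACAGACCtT
Ly6c1 promoter, chr15:75048838-75049087, minus strand: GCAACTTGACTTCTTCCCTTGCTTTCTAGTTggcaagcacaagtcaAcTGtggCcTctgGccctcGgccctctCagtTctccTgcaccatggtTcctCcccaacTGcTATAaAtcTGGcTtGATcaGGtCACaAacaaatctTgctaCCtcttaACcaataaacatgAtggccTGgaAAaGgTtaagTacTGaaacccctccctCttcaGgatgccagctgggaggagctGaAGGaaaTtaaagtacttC
The windows are offset, with 31 bases of Ly6c1 before the first base of Ly6c2. Of 216 columns with a base in both genes, 164 were identical (75.93%), and a further 68 columns held a gap, so that identical columns were 57.75% of all 284. The core of an interferon-stimulated response element (GAAANNGAA) was searched on both strands. It occurred in no window of Ly6c1 or Ly6c2, while 8.56% of all 32851 promoter windows of 300 bases held it. The absence says only that these letters are not in these windows.

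Ly6e and Ly6c2 supplied nearly all Ly6 reads in every group. Together they made up 98.5% to 99.9% of the summed CPM of the 6 genes in the group means, with Ly6e at 46.2% and Ly6c2 at 53.2% in resting CCR1/2+ve cells and at 74.6% and 24.5% in inflamed CCR2+ve cells. The summed level was 5725 ± 532 CPM (SD, n = 4) in resting CCR2+ve, 4748 ± 465 (n = 4) in resting CCR1/2+ve, 7494 ± 1017 (n = 4) in inflamed CCR2+ve, 7135 ± 842 (n = 3) in inflamed CCR1/2+ve and 1843 ± 42.6 (n = 4) in CCR1-labelled libraries. Ly6i reached at most 110.6 CPM, Ly6a 45.8 CPM, Ly6c1 3.11 CPM and Ly6d 2.01 CPM in any library. Scaled to the length of the main annotated transcript (Ly6c2-201, 822 bases, and Ly6e-201, 2281 bases), Ly6c2 was the highest member in resting CCR2+ve cells, at 3220 ± 250 CPM per kb against 1312 ± 138 for Ly6e (SD, n = 4). Per kb of all annotated exons the gap was smaller, at 966 against 791. In inflamed CCR2+ve cells the 2 genes lay at 2257 ± 496 and 2443 ± 270 CPM per kb (SD, n = 4), which is within their spread, but per kb of all annotated exons Ly6c2 was at 677 against 1473 for Ly6e. In inflamed CCR1/2+ve cells Ly6c2 was above Ly6e per kb of these transcripts (2485 against 2213) but below it per kb of all exons (746 against 1334). How these genes compared in inflamed cells, and how far apart they lay in resting CCR2+ve cells, thus depended on the length used.

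**Figure D2:**
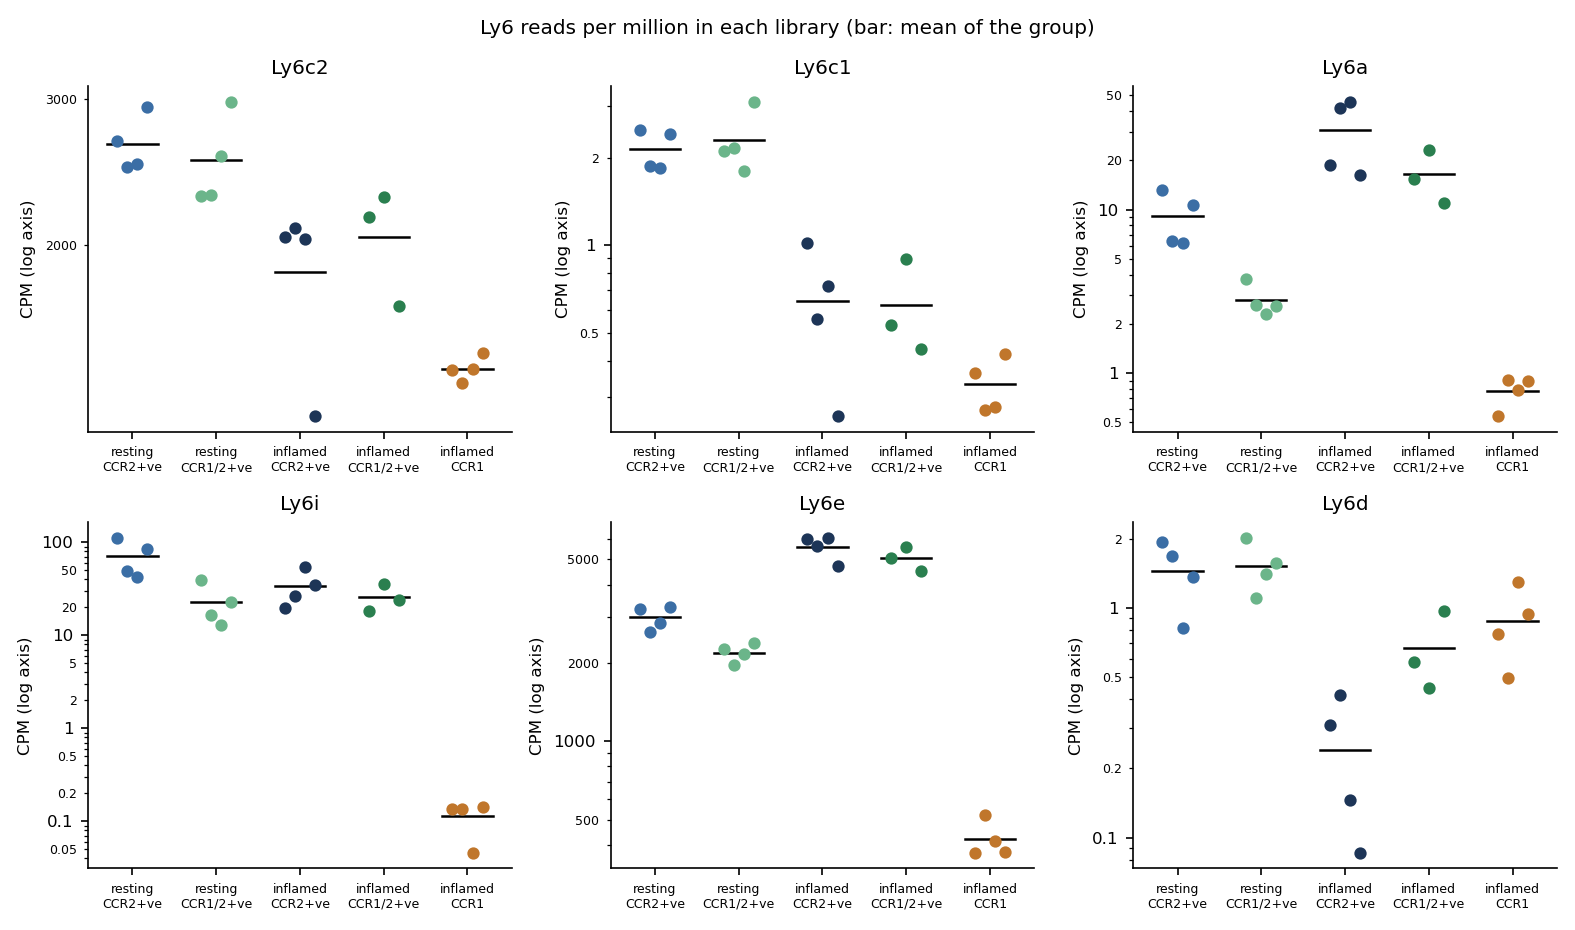
Level of each Ly6 gene in each of the 19 libraries, in CPM on a log axis, by group. Points are libraries and bars are group means. Ly6e, Ly6i and Ly6a are lowest in the CCR1-labelled libraries, while Ly6c2 stays between 1245 and 2974 CPM in every library.

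The first comparison asks whether resting CCR1/2+ve and CCR2+ve cells differ in their Ly6 transcripts. Ly6a and Ly6i were downregulated in CCR1/2+ve cells, Ly6e was lower by a small margin, and the Ly6c genes and Ly6d did not pass the test. A gene was called when its adjusted p was under 0.05 and its log2 fold change at least 1 in size. Of the 6 genes, 2 were called lower and 0 higher, beside 1.9% and 2.34% of all 18652 genes tested. The median log2 fold change was -0.18 over the 6 genes and 0.03 over all genes.

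Ly6a read 13.2, 6.46, 6.29 and 10.7 CPM in resting CCR2+ve libraries 1 to 4. In the CCR1/2+ve libraries of the same numbers it read 3.79, 2.59, 2.31 and 2.56 CPM. The groups did not overlap, and the fitted change was -1.62 on the log2 scale (SE 0.27, adjusted p = 0.00143 by edgeR; exact two-sided permutation p = 0.0286, the smallest that 4 against 4 libraries can give). Ly6i read 110.6, 48.8, 42.5 and 85.5 CPM in CCR2+ve and 38.9, 16.4, 12.8 and 22.9 CPM in CCR1/2+ve libraries. No CCR1/2+ve library reached the lowest CCR2+ve library, and the fitted change was -1.58 (SE 0.43, adjusted p = 0.0423 by edgeR). In this fit, which ignores replicate numbers, the call of Ly6i was lost when CCR1/2+ve library 2, 3 or 4 or CCR2+ve library 1 or 4 was left out. The log2 fold changes were -1.98 to -1.26 over all 8 omissions. The call was also lost when genes of low count were kept in the edgeR fit (adjusted p = 0.107). Libraries 1 and 4 were the highest for Ly6i in both populations. Within numbers, which were read as pairs here from the data, CCR2+ve cells exceeded CCR1/2+ve cells by 2.84- to 3.73-fold for Ly6i and by 2.49- to 4.18-fold for Ly6a. An edgeR fit with a replicate block called both, Ly6i at -1.60 (SE 0.08, adjusted p = 2.64e-09) and Ly6a at -1.59 (SE 0.18, adjusted p = 6.3e-06).

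Ly6e measured 3221, 2617, 2853 and 3282 CPM in resting CCR2+ve and 2261, 1958, 2156 and 2379 CPM in resting CCR1/2+ve libraries. These groups did not overlap either, and the change of -0.38 (SE 0.09, adjusted p = 0.0134 by edgeR) stayed below the fold threshold. Ly6c2 measured 2647 ± 206 CPM in CCR2+ve and 2530 ± 322 CPM in CCR1/2+ve cells (SD, n = 4 each), with overlapping libraries. Its log2 fold change was 0.01 with an approximate 95% interval of -0.17 to 0.19. Such intervals of a fitted change are normal ones taken from the SE, and are narrower than the edgeR test allows. The sign of the Ly6c2 change turned when all 19 libraries were fitted together (-0.065). It also turned when CCR1/2+ve library 4 or CCR2+ve library 2 or 3 was left out. Ly6c1 (2.15 ± 0.35 against 2.30 ± 0.57 CPM, 219 and 282 reads over 4 libraries each) and Ly6d (1.45 ± 0.48 against 1.52 ± 0.38 CPM) overlapped as well, with intervals of -0.32 to 0.67 and -0.50 to 0.78.

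**Figure D3:**
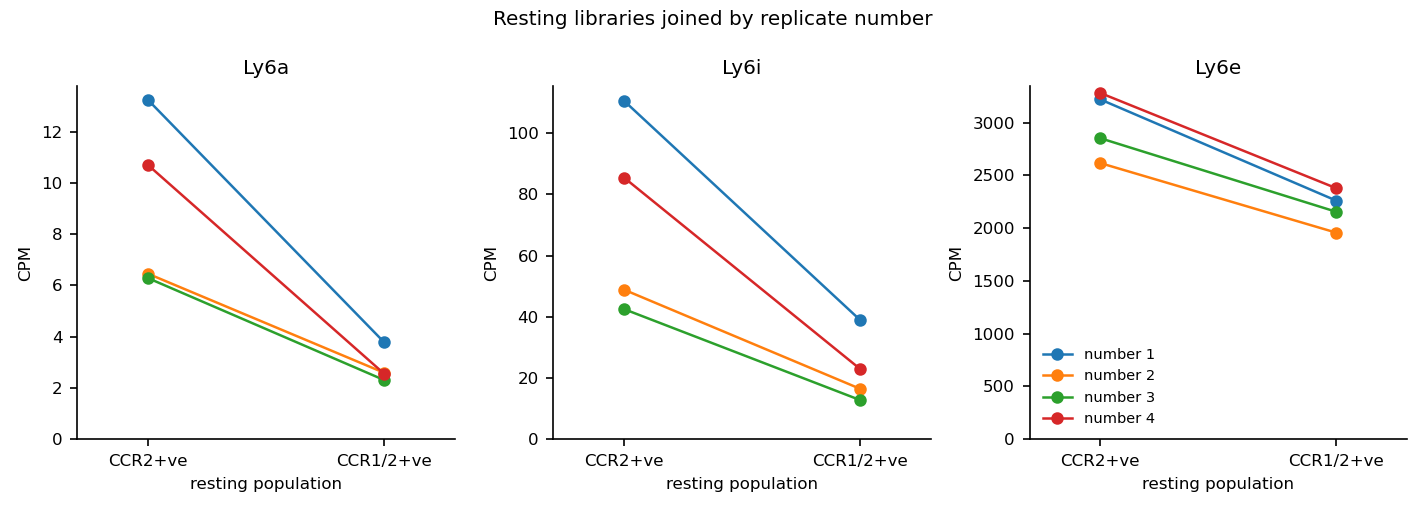
Ly6a, Ly6i and Ly6e in resting CCR2+ve and CCR1/2+ve libraries, in CPM on linear axes from 0, with lines joining libraries of the same replicate number. Each of the 4 lines falls for all 3 genes, by 2.49- to 4.18-fold for Ly6a and by 1.32- to 1.42-fold for Ly6e.

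Genes known to respond to type I interferon were read beside Ly6a, Ly6e and Ly6i. In resting CCR1/2+ve cells 7 of the 29 measured genes of that list were downregulated and 0 upregulated, beside 1.9% and 2.34% of all genes. The list median was -0.89. Among these 7, Ifit2 (-1.29, adjusted p = 0.00417) and Ifit3 (-1.39, adjusted p = 0.00625), which encode antiviral RNA-binding proteins, had the smallest p-values. The summed level of the list was 2898 to 4717 CPM in CCR2+ve and 1584 to 2662 CPM in CCR1/2+ve libraries. Other markers moved between these groups too. Of 8 monocyte markers 2 were called lower in CCR1/2+ve cells (Cx3cr1, -1.40 and Fcgr1, -1.15). None of the 8 had a positive change, and the list median was -0.83. Csf1r stayed just under the fold threshold (-0.97, adjusted p = 2.47e-04 by edgeR). The summed monocyte level was 25050 to 36896 CPM against 39743 to 45110 CPM. Of 7 T and NK cell markers 4 were lower, with a summed level of 0.740 to 1.15 CPM against 3.95 to 5.06 CPM. Of 4 conventional dendritic cell markers 2 were lower, with a summed level of 5.67 to 8.82 CPM against 25.9 to 53.1 CPM. Of 5 plasmacytoid dendritic cell markers 2 were lower (Tcf4, -1.10 and Siglech, -1.40), with a summed level of 41.8 to 60.9 CPM against 89.2 to 124.6 CPM. Of 5 tissue macrophage markers 2 were higher (Vcam1, 4.06 and C1qa, 2.51), although their summed level, which Adgre1 dominates, was 183.5 to 246.2 CPM against 252.4 to 357.4 CPM. Of 6 stem and progenitor markers 1 was higher (Kit, 2.18) and 1 lower (Meis1, -1.35), and of 6 B cell markers 1 was higher. Of 3 plasma cell markers tested 1 was lower, Sdc1, at 0 CPM in every CCR1/2+ve library against a mean of 1.06 CPM in CCR2+ve cells. Of 9 neutrophil markers 2 were higher (S100a8, 3.57 and Cxcr2, 1.99) and 0 lower, with a median of 0.02. The summed neutrophil level was 2265 to 2757 CPM against 808 to 1100 CPM, most of the gap being S100a8 (1770 against 156.6 CPM). The part of these cells in the Ly6 differences was not tested, and in bulk RNA fewer cells of a type and less RNA per cell cannot be told apart.

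The next comparisons ask how each population differed between untreated mice and mice given cytokines for 7 d. No library was labelled as from mice with a vehicle pump. The cytokines and the implanted pump with its surgery therefore cannot be told apart. In CCR2+ve cells Ly6a was upregulated while Ly6d, Ly6c1 and Ly6i were downregulated, and Ly6e rose and Ly6c2 fell by less than the fold threshold. That is 1 of 6 genes called higher and 3 lower, against 9.37% and 19.2% of all genes tested. The median log2 fold change was -0.87 over the members and -0.10 over all genes.

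Ly6a read 18.7, 41.6, 45.8 and 16.2 CPM in inflamed CCR2+ve libraries, all above the highest resting library (13.2 CPM). The change was 1.66 (SE 0.36, adjusted p = 0.00262 by edgeR). Ly6e read 5967, 5610, 6024 and 4692 CPM, against at most 3282 CPM at rest, a change of 0.83 (SE 0.11, adjusted p = 1.1e-05). Ly6i, which sits between Ly6e and Ly6a on the chromosome, moved the other way, from 71.8 ± 32.0 to 33.7 ± 14.7 CPM (SD, n = 4 each). Here the groups overlapped (exact permutation p = 0.0857), and the change of -1.16 (SE 0.38, adjusted p = 0.0327 by edgeR) was no longer called without resting library 1 or 4 or inflamed library 1, 2 or 4 (-1.48 to -0.80 over 8 omissions) or without the low-count filter (adjusted p = 0.102).

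Ly6c2 fell from 2485–2930 CPM at rest to 2047, 2099, 2032 and 1245 CPM in inflamed CCR2+ve libraries, the fourth standing well below the others. The change was -0.59 (SE 0.14, adjusted p = 0.00237 by edgeR), and it lay between -0.64 and -0.45 whichever library was left out. Ly6c1 fell from 2.15 ± 0.35 to 0.64 ± 0.32 CPM (SD, n = 4 each), a change of -1.81 (SE 0.38, adjusted p = 9.97e-04), on 219 and 56 reads in all. Ly6d fell from 1.45 ± 0.48 to 0.24 ± 0.15 CPM, a change of -2.66 (SE 0.49, adjusted p = 3.59e-04), on 149 and 21 reads. For both low genes every inflamed library was below every resting one.

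In CCR1/2+ve cells Ly6a and Ly6e were upregulated, Ly6c1 and Ly6d were downregulated, Ly6c2 fell by less than the fold threshold and Ly6i showed no detectable change. That is 2 of 6 genes called higher and 2 lower, against 9.16% and 19.4% of all genes tested, with a median of -0.19 over the members and -0.25 over all genes. Of 3 against 4 libraries no exact permutation test can go below p = 0.0571, so the p-values below come from edgeR alone.

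Ly6a read 15.5, 23.2 and 10.98 CPM in inflamed CCR1/2+ve libraries 2, 3 and 4, and no resting library exceeded 3.79 CPM. Its change of 2.42 (SE 0.28, adjusted p = 2.05e-05) was the largest of the members between inflamed and resting CCR1/2+ve cells. Ly6e read 5060, 5570 and 4516 CPM, against 1958 to 2379 CPM at rest, a change of 1.08 (SE 0.09, adjusted p = 1.42e-06). Without inflamed library 3 it was 0.998, just under the fold threshold. With scaling by total reads, the change was 0.88 and below the fold threshold, since that scaling moved the median of all genes from -0.25 to -0.46. Ly6i read 18.3, 35.8 and 23.9 CPM against 12.8 to 38.9 CPM at rest, a change of 0.06 with an approximate 95% interval of -0.70 to 0.82.

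Ly6c2 read 2158, 2282 and 1689 CPM in inflamed CCR1/2+ve libraries, below the lowest resting library (2290 CPM), a change of -0.43 (SE 0.11, adjusted p = 0.00648 by edgeR). Ly6c1 fell from 2.30 ± 0.57 (n = 4) to 0.62 ± 0.24 CPM (SD, n = 3), a change of -2.01 (SE 0.38, adjusted p = 9.78e-04). Ly6d fell from 1.52 ± 0.38 (n = 4) to 0.67 ± 0.27 CPM (SD, n = 3), a change of -1.30 (SE 0.41, adjusted p = 0.0213). Without resting library 1 or inflamed library 2 or 3 the Ly6d call was lost (-1.70 to -1.09 over 7 omissions).

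**Figure D4:**
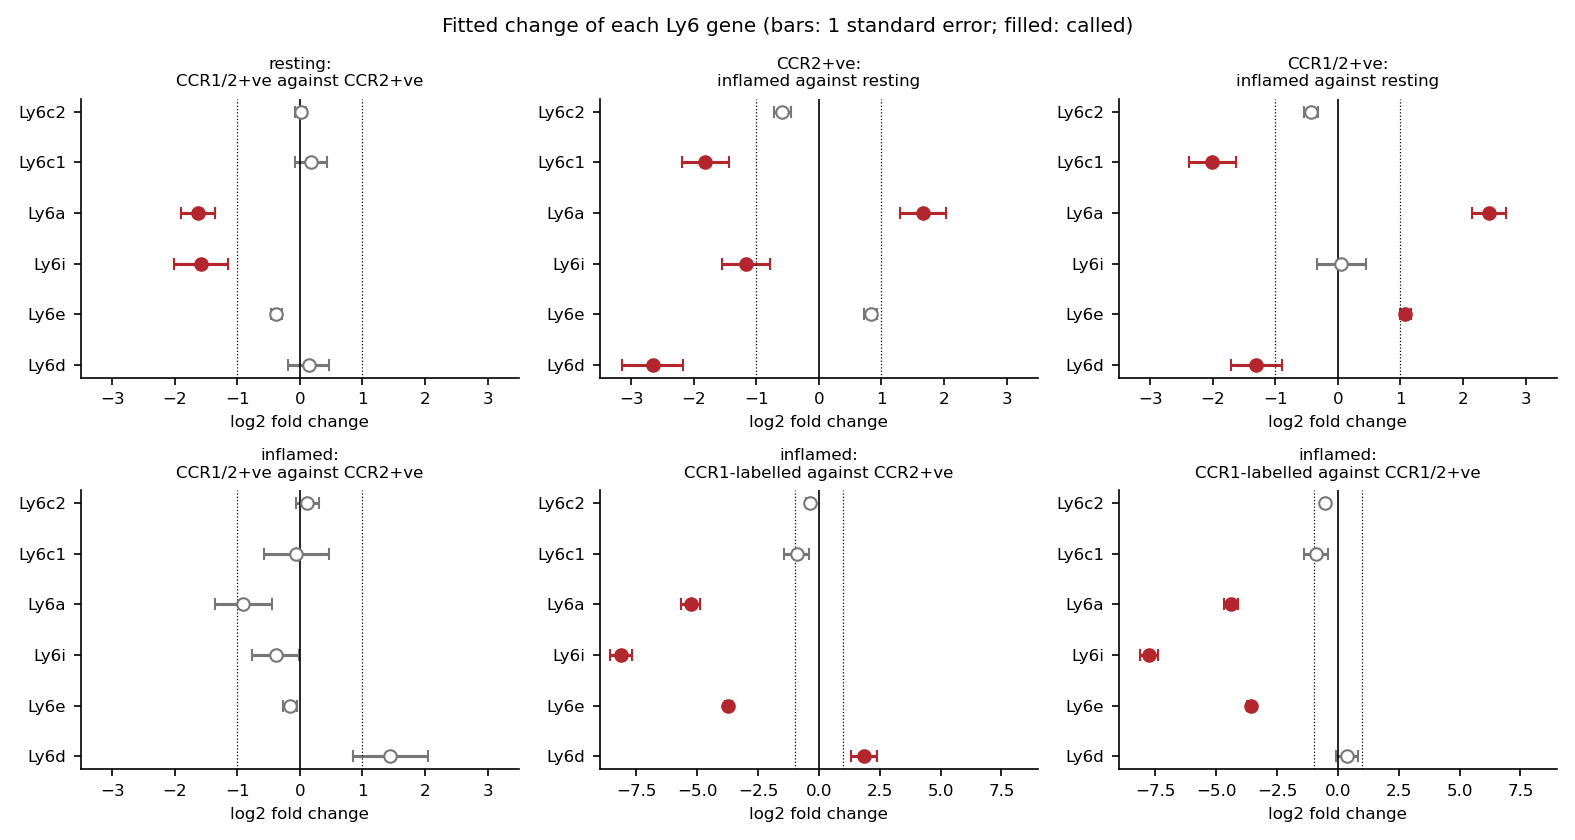
Fitted log2 fold change of each Ly6 gene in the 6 comparisons, with bars of 1 standard error. Filled red points passed the adjusted p and fold thresholds, open grey points did not, and the dotted lines mark a log2 fold change of 1 in either direction. The lower middle and right panels have a wider axis, on which Ly6i reaches -8.13 and -7.76.

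Whether the change with inflammation differed between the populations was tested by an interaction term. No member was called (0 higher and 0 lower, against 0.0911% and 0.123% of all genes), none had an unadjusted p under 0.05 by edgeR, and by DESeq2 1 did (Ly6d) and 0 were called. The largest terms were those of Ly6d (1.31, SE 0.63, adjusted p = 0.392) and Ly6i (1.17, SE 0.61, adjusted p = 0.45). A fit with a replicate block within each state called Ly6i higher (1.02, adjusted p = 0.00283 by edgeR), where the numbers pair the resting libraries but not the inflamed ones. The response of Ly6i is therefore called different or not according to the fit. For Ly6a the term was 0.72 with an approximate 95% interval of -0.30 to 1.73. The larger rise in CCR1/2+ve cells was thus not shown to differ from that in CCR2+ve cells.

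The interferon list was read again in these contrasts, since IFN-α was among the cytokines given. In CCR2+ve cells 8 of its 29 genes were upregulated and 3 downregulated, with a median of 0.47. In CCR1/2+ve cells 18 were upregulated and 2 downregulated, with a median of 1.44. For these and the marker lists below, the shares of all genes called higher and lower were 9.37% and 19.2% in CCR2+ve cells. In CCR1/2+ve cells they were 9.16% and 19.4%. Adar, an RNA-editing enzyme, rose in both (1.86 and 2.04), as did Oas3, which makes the activator of RNase L (2.58 and 3.47). Cmpk2, a mitochondrial nucleotide kinase, and Socs1, an inhibitor of cytokine signalling, fell in both (-3.02 and -3.98 in CCR2+ve, -2.78 and -3.49 in CCR1/2+ve cells). The summed level of the list was 4562 to 7933 CPM in inflamed CCR2+ve and 5197 to 7065 CPM in inflamed CCR1/2+ve libraries. Of 5 markers of plasmacytoid dendritic cells, which also carry Ly6C and Ly6d, 2 fell in CCR2+ve and 1 in CCR1/2+ve cells, and all but Tcf4 had group means under 10 CPM. Siglech fell from 2.48 to 0.18 CPM in CCR2+ve cells (-3.80, adjusted p = 1.15e-05) and from 0.89 to 0.08 CPM in CCR1/2+ve cells (-3.55, adjusted p = 0.00229), and its part in the fall of Ly6d was not tested. Of the 6 B cell markers 1 fell in each population, Ebf1 in CCR2+ve (-3.16) and Pax5 in CCR1/2+ve cells (-3.44), from 0.23 and 0.36 CPM at rest. Neutrophil markers rose in both, 4 of 9 in CCR2+ve and 6 of 9 in CCR1/2+ve cells, among them Ltf (2.48 and 4.21) and Retnlg (3.92 and 6.07), while S100a8 fell in CCR1/2+ve cells (-2.23). Their summed level was 1661 to 1940 CPM in inflamed CCR2+ve and 2788 to 3324 CPM in inflamed CCR1/2+ve libraries. Of 4 conventional dendritic cell markers 3 fell in CCR2+ve and 2 in CCR1/2+ve cells, Flt3 by 3.73 and 2.55 on the log2 scale. Of 6 stem and progenitor markers Kit and Cd34 fell in both (-2.59 and -3.52 in CCR2+ve, -3.11 and -4.08 in CCR1/2+ve cells). Of 8 monocyte markers 1 was called higher and 1 lower in CCR2+ve cells, with a median of -0.01. In CCR1/2+ve cells 3 were called higher and 0 lower, 7 of the 8 changes were positive and the median was 0.81. Of 5 tissue macrophage markers 1 rose in CCR2+ve cells, and 1 rose and 2 fell in CCR1/2+ve cells. Of 7 T and NK cell markers 1 rose and 2 fell in CCR2+ve cells, and 1 rose in CCR1/2+ve cells. Of 3 plasma cell markers Sdc1 fell in CCR2+ve cells (-2.14) and 0 were called in CCR1/2+ve cells. The part of these cells in the Ly6 changes was not tested.

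Between inflamed CCR1/2+ve and inflamed CCR2+ve cells no member was called higher or lower by edgeR, where 0.102% and 0.0429% of all genes were. At an unadjusted p under 0.05 there was 1 gene by edgeR (Ly6d) and 2 by DESeq2 (Ly6d and Ly6a), and DESeq2 called 0. Ly6a was 16.6 ± 6.17 CPM (n = 3) against 30.6 ± 15.3 CPM (SD, n = 4), with overlapping libraries and a change of -0.90 (SE 0.45, adjusted p = 0.617). Ly6d was 0.67 ± 0.27 against 0.24 ± 0.15 CPM without overlap, on 43 and 21 reads (1.45, SE 0.60, adjusted p = 0.492). For the abundant members the intervals of the log2 fold change were narrow, from -0.38 to 0.06 for Ly6e and from -0.23 to 0.47 for Ly6c2. Of 9 neutrophil markers 2 were called higher in CCR1/2+ve cells (Ngp, 1.28 and Camp, 1.43) and 0 lower. All 9 had a positive change, with a median of 1.28. No marker of the other listed cell types and no gene of the interferon list was called. The part of neutrophil transcripts in the Ly6 levels was not tested.

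In the CCR1-labelled libraries Ly6c2 was the leading Ly6 transcript by reads. Ly6e, Ly6a and Ly6i were downregulated against both inflamed populations, and Ly6d was upregulated against CCR2+ve cells. Against CCR2+ve cells 3 of 6 members were called lower and 1 higher, beside 16.8% and 14.4% of all genes. Against CCR1/2+ve cells 3 were lower and 0 higher, beside 14.6% and 13.2%. The members' medians were -2.32 and -2.23, those of all genes -0.01 and 0. Both comparisons use the same 4 CCR1-labelled libraries and are not independent.

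Ly6i was counted 3, 3, 1 and 3 times in the CCR1-labelled libraries, 10 reads in all, against 2939 reads in inflamed CCR2+ve and 1639 in inflamed CCR1/2+ve libraries. Scaled to library size it was 291 times higher in CCR2+ve cells (95% counting interval 158 to 607) and 225 times higher in CCR1/2+ve cells (122 to 470). These intervals cover counting error only. Ly6a read 0.545, 0.903, 0.785 and 0.894 CPM in CCR1-labelled libraries, changes of -5.27 (SE 0.40, adjusted p = 2.53e-07) against CCR2+ve and -4.40 (SE 0.29, adjusted p = 2.98e-08) against CCR1/2+ve cells. Ly6e read 373, 523, 414 and 377 CPM, changes of -3.71 (SE 0.14, adjusted p = 6.25e-13) and -3.58 (SE 0.13, adjusted p = 2.54e-10), and each of these libraries was also far below the lowest resting library.

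Ly6c2 read 1413, 1364, 1417 and 1483 CPM in CCR1-labelled libraries, the narrowest spread of any group. It was below every inflamed CCR1/2+ve library (-0.52, SE 0.10, adjusted p = 8.08e-04 by edgeR) but above the fourth inflamed CCR2+ve library (-0.38, SE 0.13, adjusted p = 0.0286). Neither change reached the fold threshold. Ly6c1 read 0.271 to 0.424 CPM, or 6 to 9 reads per library, and was not called (-0.92, SE 0.50, adjusted p = 0.15 and -0.89, SE 0.50, adjusted p = 0.173). Ly6d read 0.496 to 1.29 CPM and was higher than in inflamed CCR2+ve cells (1.85, SE 0.53, adjusted p = 0.00773 by edgeR). It showed no detectable difference from CCR1/2+ve cells (0.38, approximate 95% interval -0.51 to 1.26).

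Against inflamed CCR2+ve cells, 7 of the 8 monocyte markers were called lower in the CCR1-labelled libraries. Itgam was lower as well, but under the fold threshold (-0.30, adjusted p = 0.0291 by edgeR). Of 9 neutrophil markers 7 were higher and Mmp8 was lower (-6.83). Camp rose by 10.10 and Ngp by 9.33 on the log2 scale, both granule proteins of developing neutrophils. Of 6 stem and progenitor markers 2 were higher and 1 lower, with Kit, the stem cell factor receptor, at 159.8 against 0.14 CPM. Of 5 tissue macrophage markers 1 was higher, Vcam1 at 463.7 against 1.13 CPM, and 2 were lower. Of 5 endothelial markers tested 1 was higher, Tie1 at 11.9 against 0 CPM, and 1 was lower (Kdr, -5.08). Of 7 T and NK cell markers 3 were lower, Cd2 by the smallest p (-6.37), as were 2 of 4 conventional dendritic cell markers (Flt3, -4.02 and Xcr1, -3.13) and 1 of 5 plasmacytoid dendritic cell markers (Tcf4, -2.85). Of 3 plasma cell markers 1 was higher (Mzb1, 3.35) and 1 lower (Sdc1, -3.88), and of 6 B cell markers 0 were called. Over all genes 16.8% were called lower and 14.4% higher against CCR2+ve cells, and 14.6% and 13.2% against CCR1/2+ve cells. Of the interferon list 26 of 29 genes were lower and 0 higher against CCR2+ve cells, with a median of -2.69. Against CCR1/2+ve cells 25 of the list were lower, with a median of -2.75. Irf7, the master regulator of type I interferon responses, was among them (-4.71 and -4.52). Cell type and CCR1 label cannot be told apart as sources of the Ly6 differences in these libraries.

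Across the 5 groups the order of the means differed from member to member. Ly6e ran from inflamed CCR2+ve and inflamed CCR1/2+ve, whose libraries overlapped, through resting CCR2+ve and resting CCR1/2+ve to CCR1-labelled cells, each of these last steps without overlap. Ly6a kept the same order, but its inflamed CCR1/2+ve libraries overlapped with resting CCR2+ve ones. Ly6i was highest in resting CCR2+ve cells, and the 4 CCR2-expressing groups overlapped from each neighbour to the next, with a step of 198-fold in the means down to the CCR1-labelled libraries. Ly6c2 was highest in both resting groups, which overlapped, and lowest in the CCR1-labelled group, which overlapped with inflamed CCR2+ve cells. Ly6c1 followed Ly6c2 in part, with both resting groups above all inflamed ones. Ly6d libraries overlapped between neighbours except at the last step, from inflamed CCR1/2+ve to inflamed CCR2+ve cells, which did not pass the test.

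The share of Ly6c1 in all Ly6c reads was computed because the paralogs can be told apart only at their differing bases. It was 0.0903% ± 0.0144 (SD, n = 4) in resting CCR1/2+ve and 0.0809% ± 0.00905 (n = 4) in resting CCR2+ve cells. In inflamed cells it was 0.0332% ± 0.0126 (n = 4) in CCR2+ve, 0.0300% ± 0.00813 (n = 3) in CCR1/2+ve and 0.0234% ± 0.00444 (n = 4) in CCR1-labelled libraries. The highest library had 101 Ly6c1 reads of 96569 (0.105%, 95% Wilson interval 0.0861 to 0.127%) and the lowest 6 of 30685 (0.0196%, 0.00896 to 0.0427%). Every resting library lay above every inflamed one, so Ly6c1 fell further than Ly6c2. The part of misassigned Ly6c2 reads in the Ly6c1 counts was not tested.

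**Figure D5:**
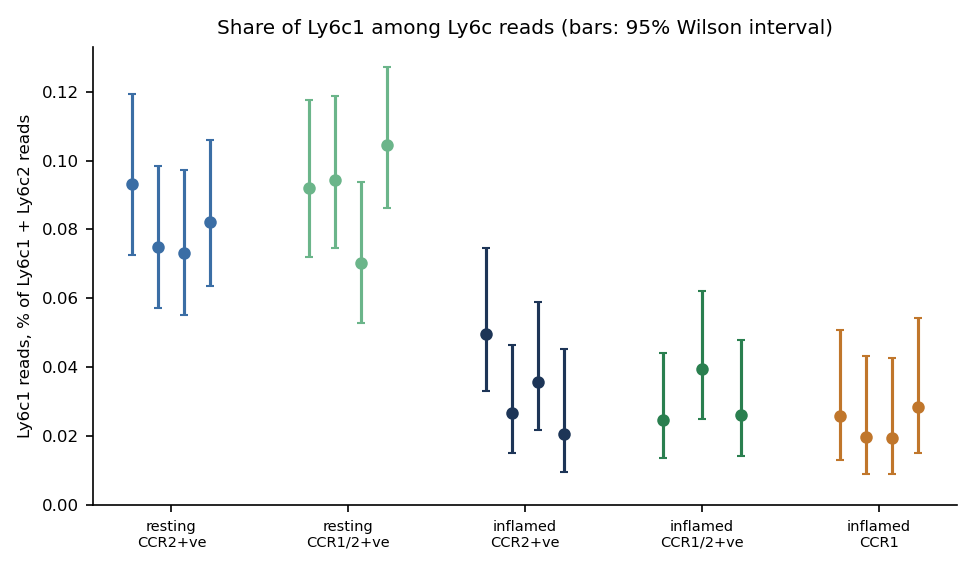
Ly6c1 reads as a percentage of Ly6c1 plus Ly6c2 reads in each library, by group, with 95% Wilson intervals that cover counting error only. The 8 resting libraries lie between 0.0703% and 0.105% and the 11 inflamed libraries between 0.0196% and 0.0497%.

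Other genes of the Ly6/uPAR family were mostly silent. Of 13 further family genes listed on chromosome 15 with a row in the table, 3 passed the low-count minimum, and of 17 elsewhere in the genome 5 did. Lynx1, whose product modulates nicotinic acetylcholine receptors, was lower in resting CCR1/2+ve than CCR2+ve cells (-1.20, adjusted p = 0.0234) and rose with inflammation in CCR2+ve (1.04) and CCR1/2+ve cells (1.07), the same directions as Ly6a, at 1.56 to 8.10 CPM. In CCR1-labelled libraries it was at 0.06 CPM. Ly6g, the neutrophil marker, was at 14.4 CPM in CCR1-labelled libraries and at 0.42 to 1.08 CPM in the other group means (5.09, adjusted p = 5.22e-11 against CCR2+ve cells). Plaur, the urokinase receptor and the only one of the 17 above 10 CPM, fell with inflammation in both populations (-2.36 and -1.59).

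The GPI anchor that holds Ly6 proteins is built and trimmed by a pathway of which 27 listed genes were measured. At rest 0 of them were called between the populations, beside 2.34% of all genes called higher and 1.9% called lower in CCR1/2+ve cells. With inflammation 6 rose and 6 fell in CCR2+ve cells, and 4 rose and 7 fell in CCR1/2+ve cells, with medians of 0.17 and 0.29. Over all genes 9.37% rose and 19.2% fell in CCR2+ve cells, and 9.16% rose and 19.4% fell in CCR1/2+ve cells. Pigs, a subunit of the transamidase that attaches the anchor, rose (1.03 and 1.32), and Pigx, which stabilises a mannosyltransferase of the pathway, fell in both (-3.49 and -4.25). Against inflamed CCR2+ve cells 4 were higher and 5 lower in the CCR1-labelled libraries, with a median of -0.060, beside 14.4% and 16.8% of all genes. Those of smallest p were Piga (1.61) and Pigp (3.95) among the higher, both subunits of the enzyme of the first step, and Pgap1 (-8.46) and Pigf (-2.14) among the lower. Pgap1, an enzyme that remodels the anchor after attachment, was at 0.11 CPM against 38.7 CPM.

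Of 23 other genes with reads within 500 kb of a member, 16 were tested. Their median level lay between 0.138 and 0.242 CPM in the 5 groups, and at most 2 had a mean of 10 CPM or more in a group. The most abundant was I830127L07Rik, a Ly6-like gene that shares windows of 50 bases with Ly6a, Ly6c2 and Ly6i, at 837.7, 803.9, 697.5, 541.2 and 328.1 CPM in resting CCR1/2+ve, resting CCR2+ve, inflamed CCR1/2+ve, inflamed CCR2+ve and CCR1-labelled libraries. It was also the gene whose log2 CPM was most like that of Ly6c2 over the 19 libraries (Pearson r = 0.94, and 0.81 after group means were removed) among 7685 genes with a mean of at least 10 CPM. Magohb (r = 0.932) and Lactb2 (r = 0.930) came next for Ly6c2, and Ly6c1 was most like Ost4 (r = 0.960), Cmc1 and Taf6l (both r = 0.959). Ly6e was most like Tmem173, which encodes the adaptor STING (r = 0.996, 0.59 within groups), followed by Ms4a6d (r = 0.995) and Tmem268 (r = 0.994). Ly6i was most like Ifi205, an interferon-inducible gene (r = 0.997, 0.92 within groups), followed by Clec2i (r = 0.992) and Slc46a3 (r = 0.991). Ly6a was most like Spon1 (r = 0.979), followed by Dhx58 (r = 0.974) and Isg15 (r = 0.973), both interferon-inducible. Among the members, Ly6c1 and Ly6c2 were alike (r = 0.93, 0.83 within groups), and Ly6a and Ly6e too (r = 0.94, 0.60 within groups). These r values are descriptions over libraries of 5 groups, which the group differences dominate, and carry no test.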

How the data were processed

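The authors sorted bone marrow cells, prepared NEBNext Single Cell/Low Input libraries and sequenced them paired-end. Per the authors' methods and the submitters' processing notes, STAR 2.7.10a aligned reads to GRCm38 and kept uniquely mapped reads only. The deposited values are raw read counts per gene, not normalized. The strand setting of the counting was not given in the sources used here. Of 20 columns 19 were used, and 1 that matched no sample record was not used.

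The 18652 genes averaging 1 read or more over the 19 libraries were fitted with edgeR 4.0.16 (R 4.3.3, quasi-likelihood test, TMM scaling over the libraries compared, Benjamini-Hochberg adjustment over all genes tested). Printed CPM use TMM scaling over all 19 libraries, so their ratios can differ slightly from fitted changes. DESeq2 1.42.0, the tool of the authors, served as an alternative. Fits were checked on simulated data with groups of 4 libraries, the same spread for all genes, and changes planted only in genes of high count. That check does not cover genes of few reads such as Ly6c1 and Ly6d, or the group of 3 libraries. Sequences came from GENCODE M21 transcripts and RefSeq. Ly6g2, Ly6m, Pigy and Irf9 were not analysed here.

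Replicate numbers were read as pairs where every same-numbered pair deviated together (r over 0.1): resting CCR1/2+ve with CCR2+ve (0.31 to 0.62) and CCR1-labelled with inflamed CCR2+ve (0.13 to 0.25). This comes from the data, not the labels, and it does not show that the other numbers are unpaired. The named genes were the 6 members, the 2 listed genes of smallest p per direction and list extremes, neighbours, and the 3 genes most like each member with a mean of at least 1 CPM. The members, lists and tests were chosen with earlier results of these data known.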

Additional observations from a re-analysis of the deposited data

Results flagged for a closer look

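In the 24 groups of 4 libraries examined (6 genes in 4 groups), 2 had a library that stood apart from the other 3 by the gap test of Dixon, which chance gives in about 1 of 20 groups. Ly6c2 in the fourth inflamed CCR2+ve library was 1245 CPM, with the other 3 between 2032 and 2099 CPM. Without that library the log2 fold change of Ly6c2 between inflamed CCR1/2+ve and CCR2+ve cells turned from 0.12 to -0.029. Ly6i in the third CCR1-labelled library was 0.0462 CPM, which is 1 read, with 3 reads in each of the other libraries of the group.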

How the results depend on the processing

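Every change is a log2 fold change, and counts are of the 6 Ly6 genes called by edgeR. DESeq2, RLE scaling and filterByExpr kept the number called in every comparison within 1.5 times. filterByExpr removed Ly6c1 from both CCR1-labelled comparisons and Ly6d from that of the inflamed populations. Without the low-count filter 1 gene (Ly6a) in place of 2 was lower in resting CCR1/2+ve cells and 2 in place of 3 fell in CCR2+ve cells, Ly6i losing its call in both. Without the fold threshold 3 genes in place of 2 were lower at rest, 2 in place of 1 rose and 4 in place of 3 fell in CCR2+ve cells, 3 in place of 2 fell in CCR1/2+ve cells, and 4 in place of 3 were lower in both CCR1-labelled comparisons. With total read counts 1 gene rose in CCR1/2+ve cells in place of 2, and Ly6i there turned to -0.16. That scaling moved the median change of all genes in this comparison from -0.25 to -0.46, and 1 fit of all 19 libraries moved it to -0.12. In the latter fit resting Ly6c2 was -0.065.

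With a replicate block, resting calls stayed (Ly6i -1.60, SE 0.08, adjusted p = 2.64e-09), as did those of CCR1-labelled against CCR2+ve cells. In the other comparisons the correlations were not all over 0.1, so the numbers were not read as pairs. There the replicate block left 0 genes rising in CCR2+ve cells (Ly6a 1.58, adjusted p = 0.0932) and 1 falling in CCR1/2+ve cells. It called 1 lower between inflamed populations (Ly6a -1.01, adjusted p = 0.0426), where Ly6c1 turned to 0.29. In the interaction, a replicate block within each state called 1 gene higher (Ly6i 1.02, adjusted p = 0.00283), and Ly6c1 turned to 0.12.

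Leaving out each library in turn, the genes called lower at rest ranged from 1 to 2, those rising in CCR1/2+ve cells from 1 to 2 and those falling from 1 to 2. Changes near 0 turned sign: at rest Ly6d (-0.060 to 0.32) and Ly6c2 (-0.064 to 0.049), with inflammation in CCR1/2+ve cells Ly6i (-0.24 to 0.51), between inflamed populations Ly6c1 (-0.42 to 0.26) and Ly6c2 (-0.029 to 0.26), and in the interaction Ly6c1 (-0.59 to 0.083) and Ly6c2 (-0.033 to 0.22). The cause was not tested. Over all genes, calls higher and lower between inflamed populations were 19 and 8 by edgeR and 43 and 64 by DESeq2, and in 1 fit of all libraries 36 and 17. In the interaction they were 17 and 23, with RLE 34 and 23 and with DESeq2 82 and 70. Depth limits Ly6d and Ly6c1, with as few as 2 and 6 reads in a library.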
